A study of Homo sapiens with 7 samples.

Results

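The set studied here comprised the distal regions of open chromatin inside protein-coding genes under 500 kb that were present in every library of the series. A member was an interval of the shortest peak list, vehicle 7, on chromosomes 1 to 22 and X that overlapped at least 1 peak in each of the other 6 lists, lay over 1 kb from every end of a protein-coding gene, and fell in the body of at least 1 protein-coding gene and of none of 500 kb or longer. This gave 4038 members of 32828 vehicle 7 intervals. Of the 17462 intervals that were present in every list, called constitutive here, 8971 lay within 1 kb of a gene end, 3888 were intergenic and 565 lay in genes of 500 kb or longer. Members were thus selected on presence in the 7 peak lists and on position, so both are description. Presence in a list needs a peak past the caller's limit, and the 1 kb rule acts on the edges of vehicle 7 intervals. Strength and width entered the choice to that extent, while ranks among the constitutive regions and summit position were not used. Every constitutive region is an interval of a vehicle list, so the choice was not even between stressed and vehicle libraries. The part of this in differences between them was not tested.

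The libraries were ATAC-seq libraries of wild-type LUHMES cells, a line of human fetal mesencephalic origin that becomes post-mitotic neurons when its v-myc transgene is shut off by tetracycline. The 4 stressed libraries, from differentiations 6, 7, 8 and 9, came from neurons given antimycin A at 25 µM and oligomycin at 10 µM for 8 h, inhibitors of complex III and of the mitochondrial ATP synthase. The 3 vehicle libraries, from differentiations 6, 7 and 8, came from neurons given DMSO. Both groups had been differentiated for 6 days in N-2 medium with tetracycline at 1 µg/mL, dibutyryl cAMP at 1 mM, GDNF at 2 ng/mL and L-glutamine at 2 mM. All libraries come from 1 cell line, and no donor varies between them. The labels number differentiations alike in both groups, so the 7 libraries may come from 4 differentiations; the tests treat them as separate, and the values with the number as a block stand beside the members' differences between stressed and vehicle libraries that passed. With 4 units in place of 7, an exact sign-flip p could not fall below 0.125.

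In ATAC-seq, the Tn5 transposase inserts adapters where DNA is free of nucleosomes. Most such sites are promoters, where transcription starts, or enhancers, which bind transcription factors and can act from inside an intron of their own target or of a neighbour. A gene may also hold internal promoters, from which shorter transcripts begin, and several genes used by neurons, among them BDNF, MAP2 and DLG4, are known for such alternative first exons.

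Of the 3281 members whose host genes were all in the RefSeq table of start windows, 881 (26.9%) overlapped the window around an annotated internal start, from 250 bases before to 50 bases after it. The stretches printed here were taken because they show the kinds of start found in the set. Each is the 200 bases before a RefSeq start, 5′ to 3′ along the gene, on GRCh38.p14 (hg38), and lies wholly inside its member. PNPLA8 and ASNS have GC-rich stretches, ENKUR and THNSL1 start back to back in 1 member, DLG4 and ELAVL2 belong to neurons, and MAP2 has none of the motifs searched. Capitals mark matches, on either strand, to the GC box GGGCGG, the CCAAT box CCAAT, the cAMP response element TGACGTCA, the ETS motif CCGGAAG, the TATA box TATAAA or the E-box CAGCTG, and overlapping matches run together.
PNPLA8, minus strand, chr7:108526136-108526335: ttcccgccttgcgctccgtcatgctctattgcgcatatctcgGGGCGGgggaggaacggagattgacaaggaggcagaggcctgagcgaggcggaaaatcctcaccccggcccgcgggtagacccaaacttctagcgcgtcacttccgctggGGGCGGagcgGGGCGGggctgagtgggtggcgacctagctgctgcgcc
ENKUR, minus strand, chr10:25016159-25016358: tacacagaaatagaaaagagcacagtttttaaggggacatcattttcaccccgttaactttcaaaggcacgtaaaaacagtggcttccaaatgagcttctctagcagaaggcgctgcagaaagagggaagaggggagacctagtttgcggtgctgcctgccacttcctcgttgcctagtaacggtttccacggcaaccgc
THNSL1, plus strand, chr10:25016412-25016611: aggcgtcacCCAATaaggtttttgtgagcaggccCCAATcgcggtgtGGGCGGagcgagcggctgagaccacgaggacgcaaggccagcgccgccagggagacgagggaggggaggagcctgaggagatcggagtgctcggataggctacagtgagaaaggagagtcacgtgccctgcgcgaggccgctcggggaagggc
ASNS, minus strand, chr7:97872409-97872608: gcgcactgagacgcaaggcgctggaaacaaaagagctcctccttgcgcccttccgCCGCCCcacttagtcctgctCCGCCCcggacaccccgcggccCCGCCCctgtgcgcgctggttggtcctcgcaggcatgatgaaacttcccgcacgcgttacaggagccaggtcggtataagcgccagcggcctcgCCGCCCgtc
DLG4, minus strand, chr17:7205188-7205387: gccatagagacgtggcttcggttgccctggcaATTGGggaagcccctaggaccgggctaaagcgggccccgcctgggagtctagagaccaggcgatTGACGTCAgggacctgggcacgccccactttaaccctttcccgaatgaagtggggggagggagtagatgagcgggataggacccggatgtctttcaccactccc
ELAVL2, minus strand, chr9:23826241-23826440: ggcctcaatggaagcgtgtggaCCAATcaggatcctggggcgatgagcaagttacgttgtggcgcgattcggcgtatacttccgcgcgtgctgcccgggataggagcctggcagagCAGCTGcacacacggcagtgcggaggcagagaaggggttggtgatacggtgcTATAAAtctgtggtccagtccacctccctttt
MAP2, plus strand, chr2:209579407-209579606: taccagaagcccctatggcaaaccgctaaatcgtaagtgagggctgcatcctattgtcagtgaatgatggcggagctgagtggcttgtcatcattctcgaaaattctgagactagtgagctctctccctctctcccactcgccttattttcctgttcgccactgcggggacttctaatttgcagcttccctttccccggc

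In median GC content and CpG ratio, the start windows under members were close to those at gene ends. Over the 986 internal start windows that overlapped a member, median GC content was 66.3% and the median ratio of observed to expected CpG was 0.813. Over the 4009 internal windows, in genes of any length, that overlapped none, these were 54% and 0.345, and over the 8379 windows near gene ends that overlapped a constitutive region, 66.3% and 0.864. A ratio over 0.6 was found in 81.3% of windows over members, 28.5% of the other internal windows and 92.6% of the gene-end windows. A GC box was found in 70.0% of the windows over members, in 33.4% of the other internal windows, in 76.0% of the gene-end windows and in 45.0% of all 34961 windows of the table. The TATA box ran the other way, with 3.45% of windows over members, 13.3% of the other internal windows, 4.06% of the gene-end windows and 11.5% of all windows. The cAMP response element, printed for DLG4, was found in 2.84% of windows over members, 3.57% of the gene-end windows and 1.85% of all windows. For the ETS motif these shares were 12.2%, 21.6% and 10.3%. The CCAAT box had 38.3%, 39.2% and 34.6%, and the E-box 21.5%, 16.5% and 18.0%. These shares describe letters in windows that overlap one another within a gene, and no test was made on them.

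A further feature was non-coding: 13 members overlapped an annotated microRNA gene. MicroRNAs pair with target transcripts chiefly through the seed, bases 2 to 8 of the mature strand, given in capitals. The strands printed are from members that differ in strength and lie wholly inside them, with sequences from RefSeq on GRCh38.p14.
hsa-miR-6132, in ST7: aGCAGGGCuggggauugca
hsa-miR-3175, in CHD2: cGGGGAGAgaacgcagugacgu
hsa-miR-7845-5p, in KLF7: aAGGGACAgggagggucgugg
hsa-miR-4741, in RBBP8: cGGGCUGUccggaggggucggcu
hsa-miR-34b-5p, in BTG4: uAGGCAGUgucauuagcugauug
hsa-miR-34b-3p, in BTG4: cAAUCACUaacuccacugccau
No seed is shared among these 6 strands. The ST7 member was among the strong ones, and the BTG4 member, over the gene of miR-34b, a microRNA known as a p53 target, had a mean percentile of 11.8 (strength is defined with the class comparison).

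Depth differed widely between libraries, which bears on each comparison. The stressed lists held 53063 to 248900 peaks and the vehicle lists 32828 to 159902. The background that the deposited fold enrichments imply, a measure of relative depth, was 2.18, 5.99, 0.816 and 1.50 fragments in stressed 6, 7, 8 and 9, and 0.492, 0.611 and 1.43 in vehicle 6, 7 and 8. Of 14 pan-neuronal marker genes, 12 (85.7%) had a constitutive region at a gene end, as had 9 of 19 dopaminergic genes (47.4%), 8 of 14 progenitor and proliferation genes (57.1%), 2 of 16 glial genes (12.5%), 3 of 13 mesenchymal and endothelial genes (23.1%), 2 of 11 blood and immune genes (18.2%) and 48.0% of all protein-coding genes.

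The members lay in 2813 of the 19656 protein-coding genes under 500 kb (14.3%). Host genes were long, with a median of 78120 bp against 23544 bp for all genes of that class. Of genes of 200 to 500 kb, 51.6% held a member, against 2.62% of genes under 10 kb. Per megabase of gene body beyond 1 kb of the ends the order was the opposite, with 3.36 members in genes of 200 to 500 kb and 9.91 in genes under 10 kb. One member was the rule: 2001 host genes had 1, and 309 had 3 or more, which together held 1102 members. ZNF423, a zinc-finger transcription factor of neural progenitors, had the most, with 14, followed by the transcriptional coregulator ZMIZ1 with 13, the ARF exchange factor IQSEC1 with 10 and, among others, SH3PXD2A, a podosome scaffold, with 9. CELF4, a neuronal RNA-binding protein, GRAMD1B, a sterol transporter, and NOL4L had 8 each. Clusters did not mean strength: the median member of ZNF423 had a mean percentile of 29.6 and its strongest one 66.4, and in CELF4 members ran between 14.5 and 91.1.

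**Figure D1:**
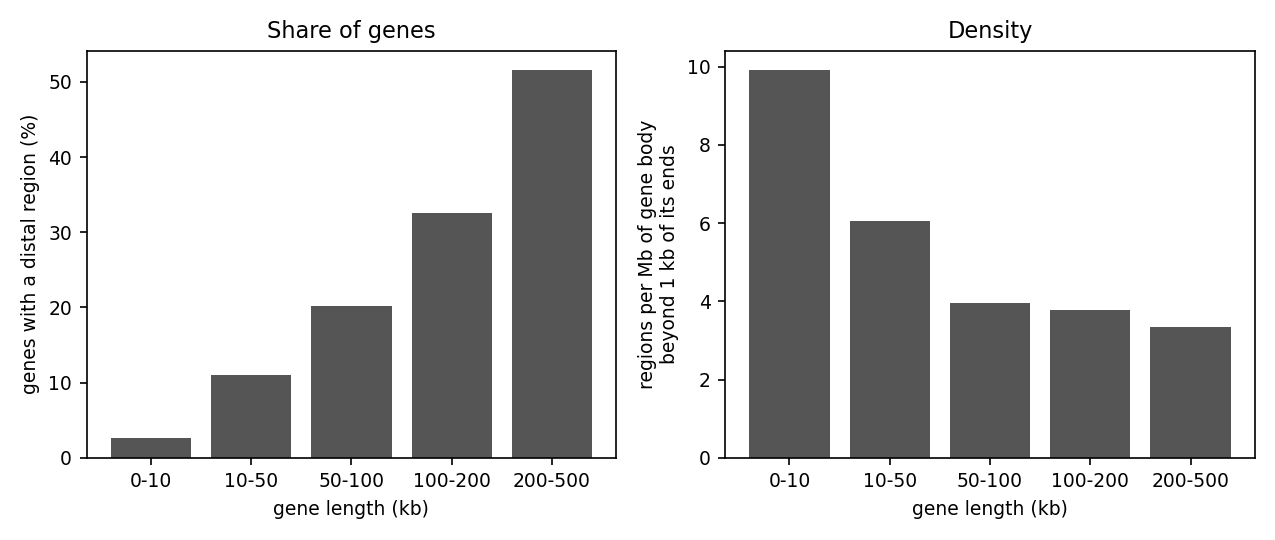
Left, the share of protein-coding genes with at least 1 member (%), by gene length in kb. Right, members per Mb of gene body beyond 1 kb of its ends. The share was highest (51.6%) and the density lowest (3.36 per Mb) in genes of 200 to 500 kb.

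The median member was 420 bp wide in vehicle 7 (162 to 3044 bp) and 14559 bp from the nearest gene end, with 615 members at 1 to 2.5 kb and 842 beyond 50 kb. Of all members, 967 (23.9%) had another within 10 kb. Just outside the limit, the members of FAM177A1 and JAG1, a NOTCH ligand, were 1001 bp from a gene end, and that of the transcription factor gene FOXL2 was 1002 bp away. Just inside it, constitutive regions of KCNV1, PNPLA6 and TRPS1 were 1000, 999 and 997 bp away and were not members.

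Members thinned out along their host genes. For the 3228 members with 1 host gene of known strand, the median position was 41.3% of the gene and 28086 bp from its start, and 32.8% lay in the first 25% of the gene against 18.5% in the last 25%. Those over an internal start leaned more to the front, with 44.0% in the first 25% and 8.31% in the last. Among those without a start these shares were 28.7% and 22.2%, so the thinning was largely a feature of the members at starts.

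**Figure D2:**
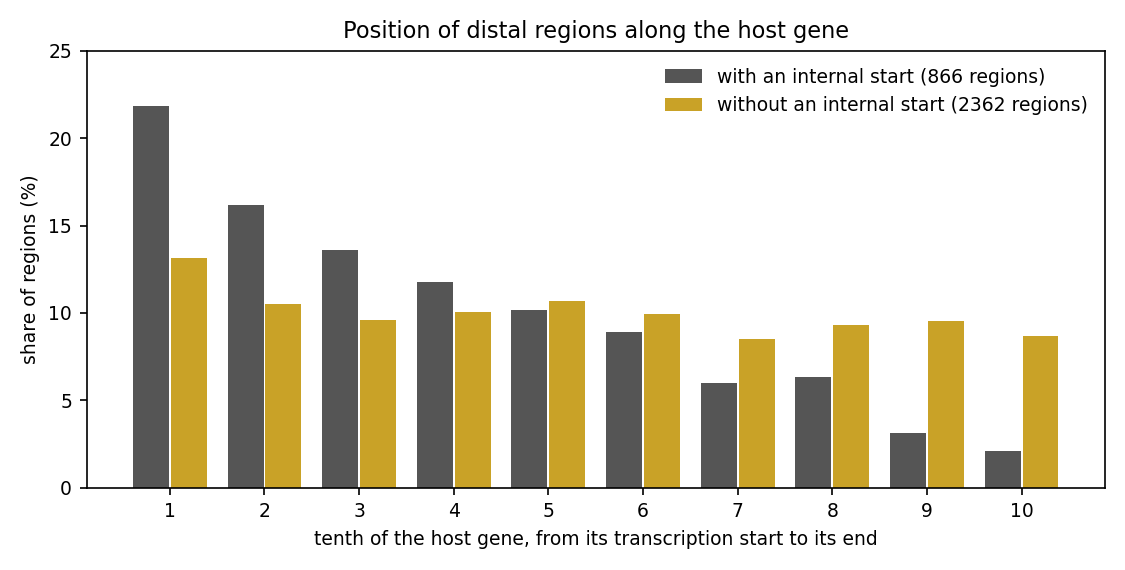
Share of members (%) in each of 10 equal stretches of the host gene, from transcription start to end, for 866 members over an internal start (dark) and 2362 without one (yellow). Dark bars run between 21.8% in stretch 1 and 2.08% in stretch 10, and yellow bars between 13.1% and 8.51%.

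Internal starts were frequent in the set. Of the 881 members at starts, 691 overlapped only protein-coding starts, 68 only starts of long non-coding RNAs and 122 both. The start belonged to the host gene itself in 813 members, in 780 host genes. Vehicle 7 intervals in the same gene bodies that some other library lacked overlapped a start in 184 of 4555 cases (4.04%), and constitutive regions of genes of 500 kb or longer in 75 of 479 (15.7%). Because presence in every list chose the members, no test was made on these shares. Seen the other way, 986 of 4617 internal start windows of genes under 500 kb (21.4%) overlapped a member. Members without a start were a median of 14085 bp from the nearest one of the table, and 212 of the 2400 were within 1 kb. The table lacks some genes, so these distances are upper limits.

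Strength was compared as a percentile, the rank of a region's highest deposited fold enrichment among all 17462 constitutive regions of the same library, with 100 the strongest. Inside genes, members were weaker than regions at gene ends and of about the strength of other distal regions. The median percentile of the members was 39.0, 36.9, 36.6 and 34.7 in the stressed libraries and 38.3, 40.3 and 42.9 in the vehicle libraries, a mean of 38.4 ± 2.68 (SD, n = 7). Gene-end regions averaged 61.0 ± 2.72, and members were lower in 7 of 7 libraries, by −22.6 on average (exact sign-flip test, two-sided, p = 0.0156, the smallest that 7 libraries allow; adjusted p = 0.0469 over 6 comparisons of classes). Intergenic constitutive regions averaged 37.5 ± 4.45 and those in genes of 500 kb or longer 37.9 ± 5.13. Members differed from them by 0.885 (−6.16 to 6.43 over libraries; exact sign-flip p = 0.625, adjusted p = 0.75) and by 0.526 (−6.16 to 7.39; exact sign-flip p = 0.75, adjusted p = 0.75), less than the spread between libraries.

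**Figure D3:**
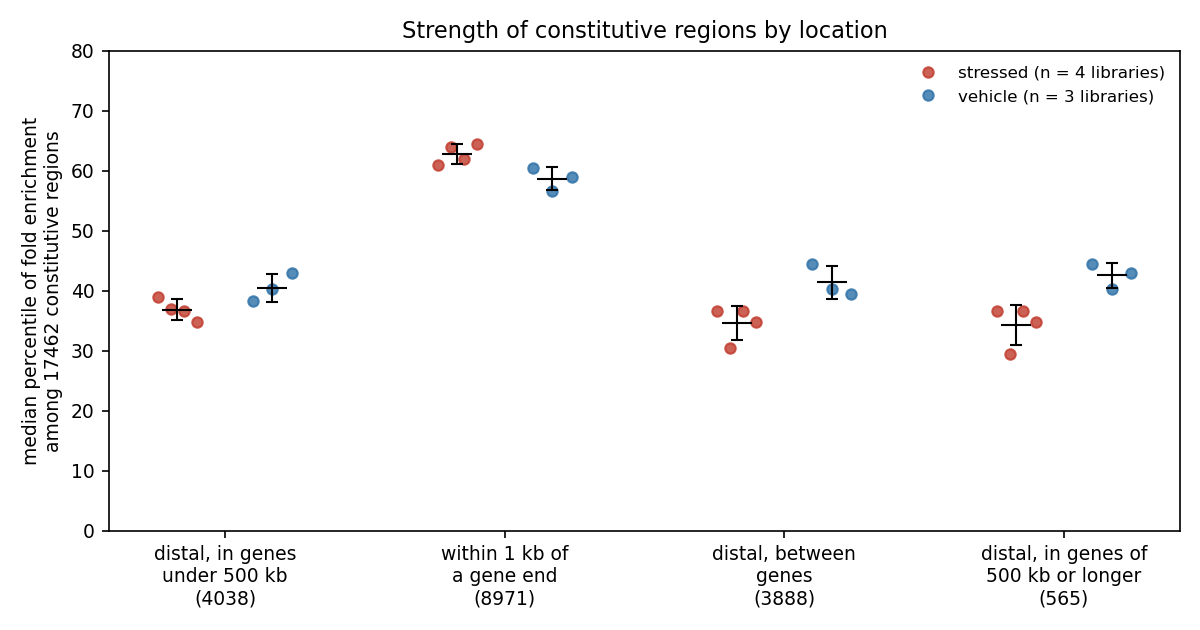
Median percentile of fold enrichment per library (points), with mean and SD (bars), for members, gene-end, intergenic and long-gene constitutive regions; stressed libraries in red, vehicle libraries in blue. Members sit between 34.7 and 42.9, below all gene-end values.

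The members were a mixture of strong regions at starts and weaker regions elsewhere. Members at starts had a median percentile of 59.98, 62.8, 56.2 and 57.4 in stressed 6, 7, 8 and 9, and of 55.7, 56.6 and 57.5 in vehicle 6, 7 and 8. Members without a start had 33.9, 29.5, 29.4 and 29.6 in the stressed libraries and 38.3, 40.3 and 39.4 in the vehicle libraries. Members at starts were higher in 7 of 7 libraries, by 23.7 on average (exact sign-flip p = 0.0156, adjusted p = 0.0469). They averaged 58.0 ± 2.50, and gene-end regions 61.0 ± 2.72 (difference −2.99; exact sign-flip p = 0.0312, adjusted p = 0.0625). Members without a start averaged 34.4 ± 4.94 and intergenic regions 37.5 ± 4.45. The difference was −3.15, lower in 5 of 7 libraries and higher in 0 (exact sign-flip p = 0.0625, adjusted p = 0.0938). The split by start was chosen after the members' values had been seen. Members at starts were also wider in vehicle 7, with a median of 628 bp against 374 bp for those without. A wider interval meets a start window more easily, and the part of width in the difference was not tested. The 68 members at starts of long non-coding RNAs only were intermediate and varied more, with stressed medians between 36.6 and 60.9 and vehicle medians between 30.9 and 56.0.

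The 12 members whose lowest percentile was highest show what the strong end consists of. All but TRABD2B and RPS29 overlapped a start of the table, where only protein-coding and long non-coding RNA starts were counted. The member of PNPLA8, a mitochondrial and peroxisomal phospholipase, had percentiles of 99.39, 99.17, 99.34 and 99.27 in stressed 6, 7, 8 and 9 and of 98.89, 99.24 and 99.25 in vehicle 6, 7 and 8. Its deposited fold enrichment was 73.27, 47.04, 24.78 and 26.01 in the stressed libraries and 34.18, 24.2 and 69.86 in the vehicle libraries. The member shared by ENKUR, a ciliary and sperm adaptor, and THNSL1, a threonine synthase-like gene, whose back-to-back stretches are printed above, had 98.72, 99.50, 98.18 and 99.34 in the stressed libraries and 98.17, 99.60 and 99.13 in the vehicle libraries. The others at starts were in DCUN1D4, which promotes cullin neddylation, SLC25A28, the mitochondrial iron importer mitoferrin-2, FOCAD, the ubiquitin-conjugating enzyme gene UBE2D3, BBS12, a ciliary chaperonin-like gene, EHBP1, an endocytic adaptor, C11orf65, and ITGA1 with PELO, at the start of the antisense RNA PELO-AS1. The members of TRABD2B, a protease that inactivates WNT proteins, and of the ribosomal protein gene RPS29 overlapped no start of the table. TRABD2B was between 98.29 and 99.73 in the stressed libraries and between 98.36 and 99.71 in the vehicle libraries. The nearest start of the table was 109089 bp away, so strength inside a gene was not limited to the starts of that table.

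MicroRNA members spanned the range of strength. The ST7 member, over the gene of miR-6132, had 94.63, 92.49, 93.44 and 96.01 in the stressed libraries and 97.31, 96.14 and 94.89 in the vehicle libraries. The CHD2 member, over the gene of miR-3175 in a chromatin remodeller, had 93.56, 89.59, 91.25 and 87.01 in the stressed and 91.18, 90.1 and 94.72 in the vehicle libraries. In both, the groups overlapped. The RBBP8 member, over the gene of miR-4741, had 76.80, 85.27, 71.26 and 82.19 in the stressed and 60.44, 68.77 and 62.92 in the vehicle libraries, without overlap (limma, unadjusted p = 0.0452, adjusted p = 0.379). Ends of long non-coding RNA genes were more frequent, with 199 members over one.

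Whether mitochondrial stress moved the members was asked next, and for the set as a whole no difference passed the test. The median percentile averaged 36.8 ± 1.76 in stressed libraries (SD, n = 4) and 40.5 ± 2.31 in vehicle libraries (SD, n = 3), a difference of −3.69 (exact permutation test over 35 assignments, two-sided, p = 0.0857; adjusted p = 0.429 over 5 measures; the smallest p possible is 0.0286). The share of members in the top 10% of constitutive regions was 4.98% ± 0.377 in stressed libraries and 5.06% ± 0.458 in vehicle libraries (exact permutation p = 0.8). The share among the 10000 strongest peaks of the whole list was 46.5% ± 3.07 in stressed libraries and 45.1% ± 4.45 in vehicle libraries (exact permutation p = 0.657). In bulk libraries, fewer cells with an open region and less opening per cell cannot be told apart.

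Summit position did not differ past the test, and peak width could not be judged, since vehicle 7 was bound by the rule. The overlapping peaks had a median width of 1235, 1859, 621 and 971 bp in stressed 6, 7, 8 and 9, and of 609.5, 420 and 1191 bp in vehicle 6, 7 and 8 (exact permutation p = 0.286). The vehicle 7 width is that of the member itself, whose edges the rule used, so no conclusion is drawn from this test. Width nevertheless counts among the 5 measures adjusted together. The groups overlapped, and the widest values, in stressed 7 and 6, stood in the libraries with the highest background. Broad peaks brought 10.5%, 13.8%, 5.03% and 8.44% of members, in stressed 6, 7, 8 and 9, into reach of a gene end, taken as 1 kb, and 5.10%, 0% and 9.71% in the vehicle libraries, where vehicle 7 is 0 by the rule, so no test was made. Summits lay a median of 42.5 to 71.5 bp from the median summit of the other libraries in stressed libraries and 43 to 65.5 bp in vehicle libraries (exact permutation p = 0.971).

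The gap between the 2 kinds of member was wider in stressed than in vehicle libraries. Members without a start were at 30.6 ± 2.17 in stressed libraries (SD, n = 4) and 39.3 ± 0.972 in vehicle libraries (SD, n = 3), a difference of −8.72 points with no overlap between groups (exact permutation p = 0.0286, adjusted p = 0.0429 over 3 measures). Members at starts were at 59.1 ± 2.91 in stressed and 56.6 ± 0.885 in vehicle libraries, a difference of 2.47 (exact permutation p = 0.286, adjusted p = 0.286). The gap between both kinds was 28.5 ± 3.25 points in stressed and 17.3 ± 0.844 points in vehicle libraries, a difference of 11.2 (exact permutation p = 0.0286, adjusted p = 0.0429). These 3 measures were formed after the data had been seen and were adjusted apart from the planned ones. They are not independent, since the gap contains the value of members without a start. With means in place of medians the difference of those without a start was −3.46 (exact permutation p = 0.0571) and the gap difference 5.67 (exact permutation p = 0.0286). With at least 50% of the interval covered it was −4.69 (p = 0.0857), and with a start counted only where its base lay inside the interval it was −5.38 and the gap difference 6.78 (p = 0.114 each; all exact permutation tests). The differentiation number as a block paired libraries 6, 7 and 8 and left out stressed 9. On these pairs the difference of members without a start was −8.40 and the gap difference 11.4 (exact sign-flip p = 0.25, the smallest that 8 sign flips allow). In hosts under 200 kb the first was −2.60 (p = 0.457) and the gap difference 5.25 (p = 0.143), and with background as a covariate −8.99 and 8.56 (p = 0.0571 each; all exact permutation tests). Medians moved in steps, since vehicle 7 had 85 distinct fold values over the constitutive regions and stressed 7 had 379. The commonest fold held 9.56%, 12.7% and 2.50% of members in vehicle 6, 7 and 8. In stressed 6, 7, 8 and 9 it held 1.81%, 1.44%, 9.39% and 6.79%. Members without a start and all members had the same median in vehicle 6 (38.3) and in vehicle 7 (40.3). Ranks are relative, and other classes moved too: in median percentile, intergenic regions were at 34.6 ± 2.88 in stressed and 41.4 ± 2.70 in vehicle libraries (difference −6.81, exact permutation p = 0.0286). Regions in genes of 500 kb or longer were at 34.3 ± 3.34 in stressed and 42.5 ± 2.13 in vehicle libraries (difference −8.20, exact permutation p = 0.0286), and gene-end regions at 62.8 ± 1.63 in stressed and 58.7 ± 1.91 in vehicle libraries (difference 4.12, exact permutation p = 0.0571). Background was higher in all 4 stressed libraries than in vehicle 6 and 7, and its part in the result was not tested beyond the covariate. All regions compared were intervals of the vehicle 7 list, and the part of that choice in these differences was not tested.

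**Figure D4:**
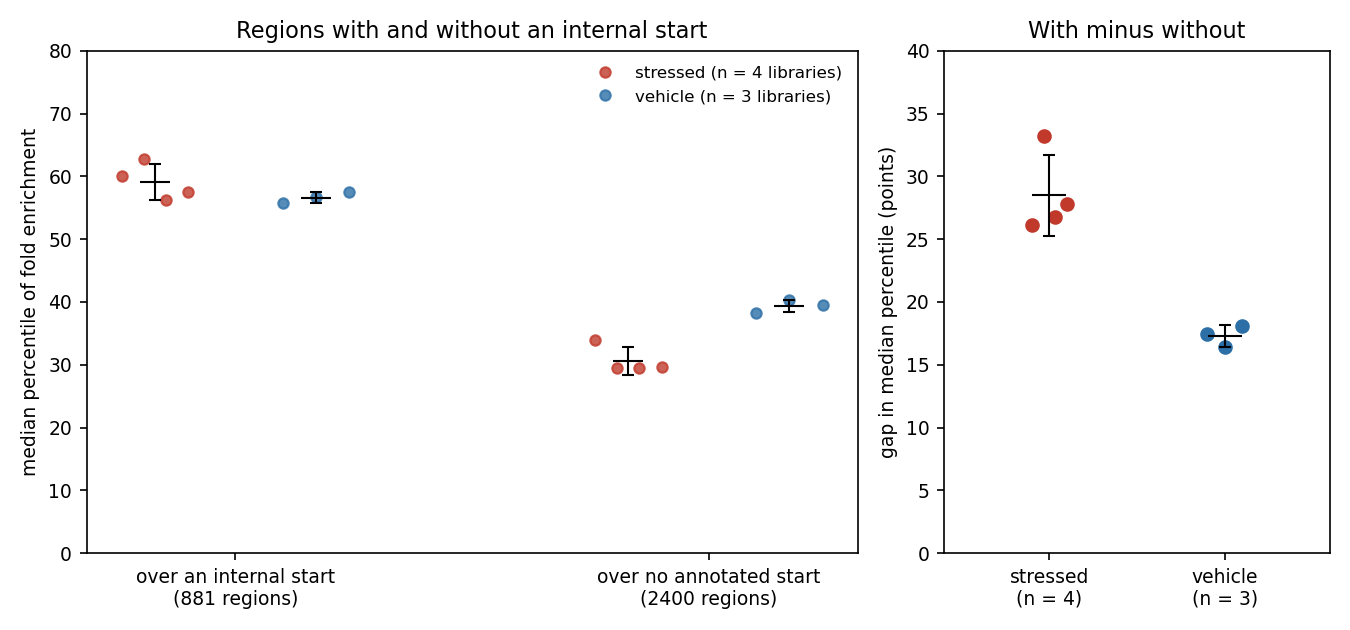
Left, median percentile of fold enrichment per library (points), with mean and SD, for 881 members over an internal start and 2400 without one; stressed libraries in red, vehicle libraries in blue. Right, the difference between both kinds in each library, 28.5 on average in stressed and 17.3 in vehicle libraries.

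Region by region, no member passed limma with Benjamini-Hochberg adjustment over all 17462 constitutive regions, where 0% of regions were called in either direction and the lowest adjusted p was 0.101. At an unadjusted p under 0.05, 180 members (4.46%) were higher in stressed libraries, against a background of 5.2% of all constitutive regions, and 430 (10.6%) were lower, against 7.54%. On the scale of centred log2 fold enrichment limma called 7 members (0.173%, background 0.16%), 1 higher (0.0248%, background 0.0172%) and 6 lower (0.149%, background 0.143%), shares near the background. Without vehicle 8 limma called 1 member (0.0248%, background 0.0458%). Of members without a start, 312 of 2400 (13%) were lower and 102 higher at that unadjusted p, and of members at starts 32 of 881 (3.63%) were lower and 46 higher. Groups did not overlap in 199 members that were higher in stressed libraries (4.93%, background 5.5%) and in 414 that were lower (10.3%, background 7.39%).

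The 5 members of smallest p in each direction are given as values. SIN3A, a scaffold of histone deacetylase complexes, had a member at 87.34, 87.75, 86.15 and 89.51 in the stressed libraries and at 50.36, 63.29 and 42.91 in the vehicle libraries (limma difference 35.5, adjusted p = 0.122). KCNG4, a modifier subunit of voltage-gated potassium channels, had one at 85.11, 75.62, 81.21 and 85.55 in the stressed and 24.64, 40.25 and 37.68 in the vehicle libraries (difference 47.7, adjusted p = 0.123). In both members every stressed library stood above every vehicle library. The BDNF member covers an internal start of this neurotrophin gene and was strong throughout, at 96.97, 97.48, 98.40 and 93.18 in the stressed and 90.30, 86.28 and 81.39 in the vehicle libraries (difference 10.5, adjusted p = 0.154). A member of DLG4, which encodes the postsynaptic scaffold PSD-95, had 41.71, 62.76, 56.18 and 57.45 in the stressed and 5.75, 4.05 and 26.31 in the vehicle libraries. It lies away from the start printed above, whose own member had means of 65.3 ± 4.65 in stressed and 64.7 ± 14.01 in vehicle libraries. The member of TNFRSF1A, the type 1 receptor of tumour necrosis factor, averaged 66.5 ± 11.6 in stressed and 21.1 ± 3.48 in vehicle libraries.

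In the other direction, the members of AGPAT4 and APP overlapped no start of the table, and those of BAALC, TRMT9B and PLCXD2, whose hosts are outside it, were not assessed. The TRMT9B member, in a tRNA methyltransferase-like gene, had 17.65, 6.83, 22.13 and 10.93 in the stressed and 77.53, 68.77 and 77.22 in the vehicle libraries (limma difference −60.1, adjusted p = 0.101). The BAALC member had 9.69, 8.48, 9.18 and 14.93 in the stressed and 71.93, 63.29 and 58.93 in the vehicle libraries (difference −54.1, adjusted p = 0.101). The member of APP, the amyloid precursor gene, lies 92957 bp from the nearest start of the table. It had 10.70, 7.36, 4.46 and 2.47 in the stressed and 60.44, 48.81 and 41.23 in the vehicle libraries (difference −43.9, adjusted p = 0.101). AGPAT4, an acyltransferase of phospholipid synthesis, averaged 5.53 ± 2.64 in stressed and 51.2 ± 8.65 in vehicle libraries, and PLCXD2 1.62 ± 1.16 in stressed and 40.3 ± 9.73 in vehicle libraries. All 5 were detected in each stressed list, since the rule required it, but in the lower part of the ranks.

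**Figure D5:**
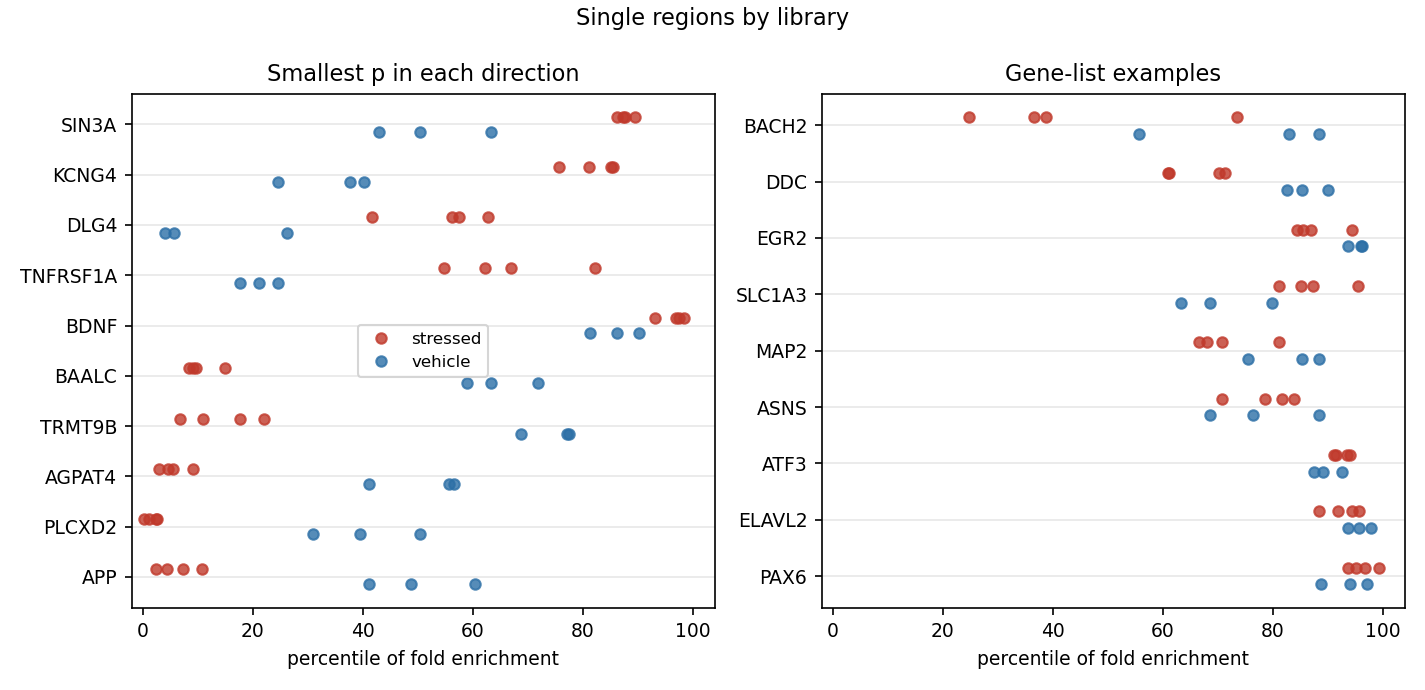
Percentile of fold enrichment of single members in each library, stressed in red and vehicle in blue. Left, the 5 members of smallest p in each direction. Right, the strongest member of 9 genes from the gene lists, such as DDC, whose stressed libraries lie between 60.95 and 71.26 and vehicle libraries between 82.52 and 90.1.

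Gene lists were read by counts beside all genes of the same length class. Members lay in 17 of 24 genes for RNA-binding and splicing factors (70.8%), 21 of 32 chromatin regulators (65.6%), 17 of 27 axon guidance genes (63.0%), 18 of 29 neural transcription factors (62.1%) and 13 of 24 genes of the neuronal cytoskeleton (54.2%), against 14.3% of all genes under 500 kb. Fewer hosts were found among 22 synaptic genes (8, 36.4%), 33 genes of WNT, NOTCH, hedgehog and TGF-beta signalling (10, 30.3%), 26 immediate early genes (7, 26.9%), 32 genes of the integrated stress response (7, 21.9%) and 22 of mitophagy (4, 18.2%). Gene length was not matched, and the share of hosts climbs with it. Among markers, 8 of 12 pan-neuronal genes (66.7%) were hosts, as were 7 of 19 dopaminergic (36.8%), 3 of 14 progenitor (21.4%), 4 of 16 glial (25%), 1 of 13 mesenchymal (7.69%) and 2 of 11 blood genes (18.2%).

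No member of any list passed the adjusted test. Median differences, stressed minus vehicle, were −2.92 over 36 axon guidance members, −4.73 over 45 of neural transcription factors, −1.80 over 42 of chromatin regulators and −1.70 over 35 of RNA-binding factors, beside −1.59 over all members. They were −0.16 over 22 cytoskeletal members, −3.89 over 16 of the signalling list, 0.51 over 15 dopaminergic members and −0.07 over 7 of mitophagy. They were 4.47 over 21 synaptic members, 8.59 over 11 immediate early members and 10.1 over 7 of the integrated stress response, where 6 of 7 were higher. For all 4038 members, 1786 were higher in stressed libraries, beside 8891 of all 17462 constitutive regions.

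Genes from the neuronal lists are given as values. Of the 15 dopaminergic members, 8 were higher in stressed libraries. DDC, which converts L-DOPA to dopamine, has 1 member, at the start of the antisense RNA DDC-AS1, at 60.95, 70.16, 71.26 and 61.06 in the stressed and 85.25, 90.1 and 82.52 in the vehicle libraries (adjusted p = 0.209). No stressed library reached a vehicle value. The member of OTX2, a midbrain transcription factor, had 14.06, 21.65, 22.13 and 24.69 in the stressed and 5.75, 4.05 and 8.69 in the vehicle libraries, without overlap in the other direction (adjusted p = 0.333). The strongest member of LMX1A, a determinant of the dopaminergic lineage, had 68.23, 65.05, 50.01 and 78.22 in the stressed and 77.53, 11.45 and 41.23 in the vehicle libraries. For EN1, a midbrain homeobox gene, the difference was 16.3, and for the strongest member of RET, the GDNF co-receptor, 8.09. MAP2, a dendritic microtubule protein, had its start member, printed above, at 66.57, 68.07, 81.21 and 70.73 in the stressed and 85.25, 88.35 and 75.50 in the vehicle libraries, with overlap. The strongest of 3 members of ELAVL2, a neuronal RNA-binding protein, was near the top in both groups, at 92.6 ± 3.24 in stressed and 95.7 ± 2.08 in vehicle libraries. The weakest had a mean percentile of 61.5.

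No member in a stress gene passed the adjusted test. Of the 7 members of the integrated stress response list, the one of EIF2AK3 was lower in stressed libraries. ASNS, the asparagine synthetase induced by ATF4, had its start member at 81.61, 78.50, 83.81 and 70.73 in the stressed and 68.53, 88.35 and 76.41 in the vehicle libraries (difference 0.894, SD 5.72 and 9.98). The member of ATF3, a stress-induced transcription factor, was at 92.6 ± 1.45 in stressed and 89.8 ± 2.58 in vehicle libraries, with overlap. That of EIF2AK3, the kinase PERK, was at 81.7 ± 4.36 in stressed and 89.9 ± 2.10 in vehicle libraries (adjusted p = 0.345). The member of EIF2AK4, the kinase GCN2, had 65.73, 41.2, 43.43 and 64.4 in the stressed and 31.66, 30.94 and 46.37 in the vehicle libraries, with overlap (adjusted p = 0.537). Among mitophagy genes, the member of SQSTM1, the autophagy receptor p62, had 29.83, 26.76, 1.45 and 53.28 in the stressed and 1.97, 4.05 and 4.48 in the vehicle libraries, so stressed 8 stood with the vehicle libraries. That of ULK1, a kinase that starts autophagy, had 67.4, 49.08, 66.9 and 57.45 in the stressed and 5.75, 48.81 and 42.91 in the vehicle libraries, without overlap (adjusted p = 0.392). TRAK1, an adaptor of mitochondrial transport, had 4 members, the strongest at 50.7 ± 10.7 in stressed and 60.3 ± 7.19 in vehicle libraries.

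Markers of other cells were present among the hosts. Of 5 glial members 2 were higher in stressed libraries (median difference −0.50), of 5 progenitor members 3 (median 2.45), of 2 mesenchymal members 1 and of 4 blood members 1 (median −6.79), and none passed the adjusted test. SLC1A3, a glutamate transporter of astrocytes and radial glia, had a member at a start, at 85.11, 87.25, 81.21 and 95.56 in the stressed and 79.84, 63.29 and 68.62 in the vehicle libraries (adjusted p = 0.237). The strongest member of PAX6, a progenitor factor, was at 96.3 ± 2.42 in stressed and 93.3 ± 4.29 in vehicle libraries, and that of PCNA, a replication clamp, at 90.7 ± 5.32 in stressed and 88.3 ± 6.83 in vehicle libraries. That of NES, an intermediate filament of progenitors, was at 53.7 ± 7.498 in stressed and 57.8 ± 17.2 in vehicle libraries. Among glial genes, MBP, a myelin protein, was at 13.2 ± 11.6 in stressed and 19.1 ± 10.9 in vehicle libraries, the glutamate transporter gene SLC1A2 at 9.26 ± 4.92 in stressed and 10.6 ± 12.2 in vehicle libraries, and PDGFRA, of oligodendrocyte precursors, at 71.4 ± 8.27 in stressed and 71.9 ± 4.91 in vehicle libraries. The mesenchymal gene PRRX1 was at 31.3 ± 17.2 in stressed and 58.9 ± 28.2 in vehicle libraries. Of the blood genes, IKZF1 was at 17.045 ± 8.92 in stressed and 51.2 ± 26.2 in vehicle libraries (limma, unadjusted p = 0.0146, adjusted p = 0.274) and RUNX1 at 81.3 ± 7.06 in stressed and 85.0 ± 2.51 in vehicle libraries. MBP, PRRX1, IKZF1 and RUNX1 have 2 members each, of which the stronger is given. Their weaker members had mean percentiles of 14.2, 38.3, 9.20 and 20.6. Open regions in these genes do not show that such cells were in the libraries, and their presence was not tested.

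Over the members, percentiles of libraries correlated with Spearman coefficients of 0.640 to 0.852 between stressed libraries and 0.573 to 0.728 between vehicle libraries, and of 0.480 to 0.813 between groups. These coefficients are across regions, which share the depth of their library, and describe likeness of ranks only.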

How the data were processed

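ATAC-seq peak lists of 4 stressed and 3 vehicle libraries were analysed. Per the labels' protocols, nuclei were tagged with Tn5 and amplified by PCR. The submitters' processing notes name FastQC, Bowtie2, Picard and hg38. Peaks were called with MACS2 for each library, per the file headers. Its parameters and any Tn5 offset were not given in the sources used here. Each deposited list holds for each peak a score and a summit fold, the ratio over background, with −log10 of the p-value and −log10 of the q-value, as the authors' caller wrote them. The score was not used beyond its unit check. The number of reads is not given; the background per library was recovered from the deposited folds, which gave whole pileups for 100% of peaks at a tolerance of 0.02.

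The members and gene lists were chosen with earlier results of these data known. Overlap meant at least 1 bp. Gene positions, strands of starts, start windows and microRNAs came from RefSeq tables on GRCh38.p14. The start table held no start on chromosome 8 and lacked other genes. The 757 members with a host gene outside it were left out of the start comparison. No genome was used here, so sequence content of the members, planned in the design, and exons were not analysed. Coordinates are 1-based on hg38.

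The highest fold over a member was ranked in each library among 17462 constitutive regions. Library values were compared by exact permutation tests and classes by exact sign-flip tests, both two-sided, and regions by limma 3.58.1 (R 4.3.3) with a trend and Benjamini-Hochberg adjustment at 0.05. The code was tested on simulated data and against bedtools 2.31.1. Named were the 12 members of highest lowest percentile, the 8 genes with most members, the 5 of smallest p per direction, up to 4 genes per list, the strongest microRNA and non-coding RNA members, and the 3 nearest to the 1 kb limit on each side; some genes and a list that this rule names are not reported here. The numbers 6, 7 and 8 mark differentiations in both groups. Deviations of same-numbered libraries had correlations of −0.105, −0.0585 and −0.139, and those of the other pairs ran from −0.151 to 0.293. These values cannot settle whether the numbers pair the libraries. The main tests treat the 7 libraries as separate, although they may come from 4 differentiations. All are of 1 line, and p-values measure the spread between libraries. Alternatives were the ranking measure, overlap, q-value, distance and gene-length limits, each library left out, the 4 shortest lists, background as a covariate, the replicate block and other limma scales; the split by starts and its alternatives were added after the data were seen.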

Additional observations from a re-analysis of the deposited data

Results flagged for a closer look

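The difference between stressed and vehicle libraries was not alike for both kinds of member. The gap between members with and without an internal start was larger in stressed libraries by 11.2 points (exact permutation p = 0.0286). With the differentiation number as a block, without stressed 9, it was larger by 11.4 (exact sign-flip p = 0.25, the smallest possible). Among values of the 4 stressed libraries, 3 had a library far from the others. Stressed 6 stood apart in the median percentile of members without a start, at 33.9. Stressed 9 stood apart for the strongest member of DCUN1D4, at 98.57, and for the FOXL2 member, at 24.69. In all, 50 sets of stressed values were examined, and chance flags about 1 in 20.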

How the results depend on the processing

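With the 4 libraries of shortest lists, members differed from gene-end regions by −23.4, members with from those without a start by 22.1, and the start gap by 10.4 (smallest possible p 0.125, 0.125 and 0.333). The stressed minus vehicle difference of members without a start missed 0.05 with 50% of the interval covered (−4.69, p = 0.0857), with a −log10 q of at least 5 (−7.46, p = 0.0857), in hosts under 200 kb (−2.60, p = 0.457), with the 4 shortest lists (−9.75, p = 0.333), with background as a covariate (−8.99, p = 0.0571), with means (−3.46, p = 0.0571) and with the start base inside the interval (−5.38, p = 0.114); the start gap did so in hosts under 200 kb (5.25, p = 0.143), with the covariate (8.56, p = 0.0571) and with the start base inside (6.78, p = 0.114; all exact permutation tests). The cause was not tested. Ranked among the members only, those at starts were higher in stressed libraries by 4.93 (exact permutation p = 0.0286), and with the covariate lower by −0.42. At 2500 bp from gene ends the difference in the top 10% was −0.71 points (exact permutation p = 0.0286). The share among the 10000 strongest peaks reversed to −0.80 with the q limit, −0.54 at 2500 bp and −2.86 with the covariate. The covariate also reversed the width difference, to −181 bp, and that in members joined to gene ends, to −0.17 points. The difference from intergenic regions turned to −0.44 with 50% covered and −1.54 with the 4 shortest lists, as did that from long-gene regions, to −1.54. On centred log2 folds limma called 7 members (0.173%, background 0.16%).

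The replicate block used libraries 6, 7 and 8 of both groups and left out stressed 9. With it, the difference of members without a start was −8.40 and that of the gap 11.4 (exact sign-flip p = 0.25, the smallest possible). The summit difference turned to −3.75 bp, and limma called 0 members. Whether the numbers pair the libraries was not settled.

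Leaving out each library in turn gave −4.77 to −2.48 for the median of all members, −0.31 to 0.15 for the top 10% (positive without stressed 8, 0.10, or vehicle 8, 0.15), −0.12 to 3.96 for the 10000 strongest (negative without vehicle 7), 202 to 657 bp for width, −4.81 to 6.44 bp for summits (−1.17 without stressed 8, −3.75 without stressed 9, −4.81 without vehicle 8), and 2.04 to 6.89 points for joined members. It gave 1.24 to 3.44 for members at starts, −9.81 to −8.27 for those without and 9.60 to 11.98 for the gap, where p cannot fall below 0.0667. Members differed from gene-end regions by −23.7 to −21.5, from intergenic ones by −0.040 to 2.06, from long-gene ones by −0.62 to 1.64 (both lowest without stressed 7), and with from without starts by 22.1 to 24.9. limma called 0 to 1 members, the 1 without vehicle 8 (0.0248%, background 0.0458%). For 14 single regions, the 5 of smallest p per direction with DDC, SLC1A3, EGR2 and BACH2, 236 refits all kept the direction. Most of these regions were picked on this contrast and the refits reuse the same libraries, so the kept direction lends them no weight. On centred log2 folds 3 passed the threshold (KCNG4, BAALC and TRMT9B). Depth is unknown as reads, and coarse folds in the shallow libraries limit the ranks.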
